A study of Rattus norvegicus with 18 samples.

Results

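The genes described here encode proteins that shorten the life of cytokine mRNAs: the Regnase family members Zc3h12a, Zc3h12c and Zc3h12d, the tristetraprolin family members Zfp36, Zfp36l1 and Zfp36l2, and the Roquin genes Rc3h1 and Rc3h2. The 8 symbols were listed by name around Zc3h12d, which was itself picked because its level in fibril-treated cultures differed from control in opposite directions in astrocytes and microglia. Of the 8 symbols, 7 were found in all 18 count tables, among 16704 symbols that the astrocyte and microglia tables share. Rc3h1 was absent from the tables and has no value.

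Cytokine mRNAs are short-lived because their 3′ untranslated regions carry sequence and structure elements that decay factors read. Tristetraprolin and its relatives bind AU-rich elements and recruit the CCR4-NOT deadenylase, while Roquin proteins and Regnase-1, the product of Zc3h12a, recognise stem-loops, which Regnase-1 cuts. In glia and other innate immune cells, inflammatory signals induce several of these factors together with their targets, and phosphorylation or proteolysis then switches the proteins on and off without any change in mRNA.

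Primary astrocytes and microglia of WT genotype were prepared from the cortex of Sprague-Dawley rat pups on postnatal day 2, and poly(A) RNA was sequenced as stranded libraries. Each cell type was left untreated (control) or given Aβ42 or Aβ40 fibrils at 25 µM, and each culture was collected at 24 h. With 3 libraries in each of the 6 groups, the design asks how each fibril type alters expression in each cell type. Where the replicates of a group came from was not stated, so each p-value below measures the spread between samples.

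Counts on genes in the astrocyte libraries were 3674043, 3949126 and 13768995 in controls, 14839572, 10120352 and 8333014 with Aβ42, and 9574779, 19013919 and 15302150 with Aβ40, in replicate order as everywhere below. In microglia they were 8249339, 5098145 and 6648595 in controls, 2613723, 22274367 and 17687416 with Aβ42, and 4104702, 4425805 and 2271834 with Aβ40. Levels are given as CPM, counts scaled to a common library size after correction by the trimmed mean of M-values (TMM). Astrocyte and microglia libraries were scaled separately, so CPM values are compared within a cell type, and the cell types are compared through a fit of all 18 libraries together. Changes are log2 fold changes from edgeR, and a gene was called when its p, adjusted over all genes tested, was under 0.05. The standard error (SE) was derived from each test, as the absolute log2 fold change divided by the square root of its F statistic.

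The cell type labels were checked against marker genes. Before treatment, 15 of 16 microglial markers were higher in microglia than in astrocytes and 10 of 11 astrocyte markers were lower, in both cases by the 18-library test. The microglial markers were nevertheless present in the astrocyte cultures, where their summed level was 859, 733 and 785 CPM in controls, with Csf1r or Fcer1g the most abundant. That sum was 205, 197 and 181 CPM with Aβ42 and 162, 164 and 170 CPM with Aβ40. Of the 16 microglial markers, 14 fell in astrocyte cultures with Aβ42 and 15 with Aβ40. In the microglia, the same sum was 12465, 12248 and 14238 CPM in controls, 6266, 4175 and 4800 CPM with Aβ42 and 5201, 5162 and 6005 CPM with Aβ40, with 12 of 16 markers lower and 1 higher under Aβ42 and 14 lower and 1 higher under Aβ40. With any 1 library left out, the markers called lower in microglia numbered 12 to 14 and 11 to 14. The 11 astrocyte markers summed to between 10194 and 12798 CPM in astrocyte controls, 7369 and 7535 CPM with Aβ42, and 8096 and 8331 CPM with Aβ40, with 7 lower and 2 higher under Aβ42 and 6 lower and 3 higher under Aβ40 (6 to 7 and 5 to 7 lower with 1 library left out). In microglia libraries the astrocyte markers summed to between 1349 and 1522 CPM in controls, 821 and 911 CPM with Aβ42 and 921 and 995 CPM with Aβ40, most of it Glul. Of 10 tested there, 3 were higher and 2 lower under each fibril type, and without microglia control replicate 3 the number higher under Aβ42 was 1. In bulk RNA, fewer cells of a type and less RNA per cell cannot be told apart.

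A pair of libraries stood apart from their groups. In microglia, Aβ42 replicate 1 differed from Aβ42 replicates 2 and 3 by a median absolute log2 difference over genes of 0.384 and 0.391, while those replicates differed from each other by 0.0996. The same library differed from the Aβ40 libraries by 0.191, 0.201 and 0.232, so it lay closer to that group than to its own. Depth split these libraries in the same way. Replicate 1 held 2613723 counts on genes and the Aβ40 libraries 2271834 to 4425805, against 22274367 and 17687416 in Aβ42 replicates 2 and 3. The part of depth or preparation in these distances was not tested. In astrocytes, control replicate 2 differed from the other controls by 0.474 and 0.489, against 0.223 between those. It also had 34.3% of its counts listed as no feature or ambiguous, against 26.0% to 28.9% in the other astrocyte libraries. The count tables of astrocyte control replicate 2 and Aβ42 replicate 3 were named in another form than the other 7, and whether these libraries were prepared or sequenced apart was not stated. Over 11690 genes, the deviations of control replicate 2 from its group mean went with those of Aβ42 replicate 3 (r = 0.527) and Aβ40 replicate 1 (r = 0.494), as those of the latter 2 did with each other (r = 0.506). No label gives a batch, so a batch shared across the groups cannot be told apart from other differences between cultures. Calls of the decay factors that changed without either library are given below, with values or ranges. Whether the label of microglia Aβ42 replicate 1 is right cannot be told from these files. It was kept as deposited, so the microglia Aβ42 means and the comparison of Aβ42 with Aβ40 in microglia carry that limit.

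Fibril-against-control counts of called genes are given for the 6 genes other than Zc3h12d that could be tested. In astrocytes, Aβ42 raised 2 of the 6 (16.5% of all 11690 genes tested were called higher) and lowered 0 of 6 (20.4% of all genes were called lower). Aβ40 raised the same 2 of 6, Zc3h12a and Zfp36l1 (14.9% of all genes), and lowered 0 of 6 (18.4% of all genes). At an unadjusted p under 0.05, Zfp36l2 was lower under Aβ42 in astrocytes and none of the 6 was lower under Aβ40, and the DESeq2 Wald test called 0 of 6 lower in either comparison. In microglia, Aβ42 raised 2 of 6, Zc3h12a and Zfp36 (27.1% of 10837 genes), and lowered 2 of 6, Zfp36l1 and Zfp36l2 (26.6% of all genes). Aβ40 raised 3 of 6 in microglia, Zc3h12a, Zc3h12c and Zfp36 (19.6% of all genes), and lowered 1 of 6, Zfp36l2 (21.4% of all genes). The Aβ42 and Aβ40 comparisons of a cell type share their 3 control libraries. With 6 genes, these counts are too few to be set apart from those shares, and what follows concerns single genes.

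**Figure D1:**
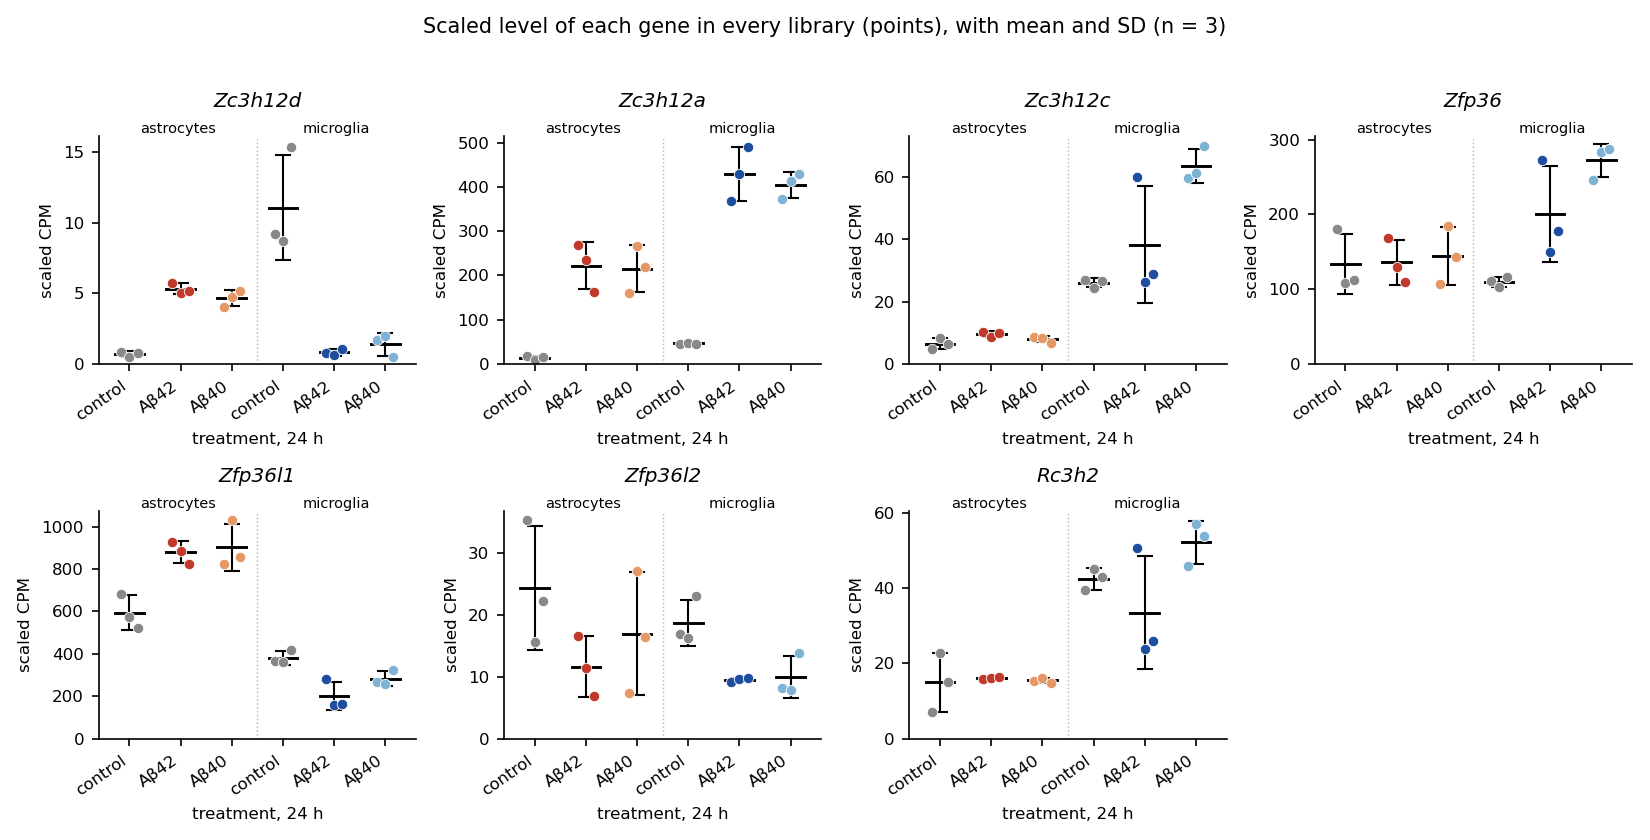
Scaled CPM (y axis, from 0) of each gene in each of the 18 libraries, by treatment (x axis), with astrocytes left and microglia right of the dotted line; points are libraries and black bars are the mean and SD of 3. Zc3h12a lay between 8.85 and 16.7 CPM in astrocyte controls and between 161 and 268 CPM with fibrils. Zc3h12d was lower in controls than with fibrils in astrocytes, and higher in controls than with fibrils in microglia.

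Zc3h12d encodes Regnase-4, a CCCH zinc-finger protein of the Regnase family first known from lymphocytes. Its level in astrocyte controls was 0.834, 0.478 and 0.773 CPM, from 3, 2 and 11 counts. It was 5.76, 5.05 and 5.16 CPM with Aβ42 and 4.05, 4.71 and 5.18 CPM with Aβ40, from 43 to 84 and 39 to 88 counts. Each fibril-treated astrocyte library was thus above each control library, with no overlap. In microglia, Zc3h12d was at 9.18, 8.68 and 15.4 CPM in controls, from 78, 45 and 101 counts. It was at 0.799, 0.605 and 1.08 CPM with Aβ42, from 2, 14 and 19 counts, and at 1.69, 2.01 and 0.459 CPM with Aβ40, from 7, 9 and 1 counts. Each treated microglia library was below each control, again without overlap, and the treated values rest on few counts: 3 counts correspond to 1.20 CPM in Aβ42 replicate 1 and 1.38 CPM in Aβ40 replicate 3. Such floors cover counting error only.

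Because Zc3h12d was picked on these contrasts, its changes are a description with no test. The group means were 0.695 ± 0.190 (SD, n = 3) CPM in astrocyte controls, 5.33 ± 0.383 with Aβ42 and 4.64 ± 0.566 with Aβ40. In microglia they were 11.1 ± 3.74 in controls, 0.829 ± 0.240 with Aβ42 and 1.39 ± 0.818 with Aβ40. On the log2 scale, the difference from control was 2.87 and 2.68 in astrocytes with Aβ42 and Aβ40, and −3.74 and −2.82 in microglia. The change in astrocytes minus that in microglia came to 6.60 for Aβ42 and 5.52 for Aβ40, and untreated microglia lay 4.17 above untreated astrocytes. Across the alternatives tried, single libraries left out included, the astrocyte Aβ42 difference ran from 2.76 to 3.03 and the microglia Aβ42 difference from −4.10 to −3.39. For Aβ40 the ranges were 2.56 to 2.84 in astrocytes and −3.14 to −2.49 in microglia.

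On the scale shared by all 18 libraries, the order of Zc3h12d from high to low was untreated microglia, astrocytes with Aβ42, astrocytes with Aβ40, microglia with Aβ40, microglia with Aβ42 and untreated astrocytes. Their mean log2 CPM was 3.60 ± 0.441, 2.40 ± 0.0869, 2.20 ± 0.156, 0.63 ± 0.967, 0.17 ± 0.346 and −0.24 ± 0.317 (SD, n = 3). The lowest 3 groups overlapped, and the astrocyte groups with Aβ42 and Aβ40 overlapped as well. The choice of Zc3h12d did not use the contrast of Aβ42 against Aβ40, though that contrast rests on the same treated libraries. It gave a log2 difference of 0.19 (SE 0.177, adjusted p = 1) in astrocytes and −0.92 (SE 0.560, adjusted p = 0.236) in microglia, and neither passed the test. In microglia Zc3h12d passed the count filter through the controls, and the treated libraries compared held 1 to 19 counts. No conclusion is drawn from these tests. With any 1 library left out the microglia difference ran from −1.28 to −0.58 and was never called.

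Markers of other cells moved beside Zc3h12d, and their part in its values was not tested. In astrocyte cultures the microglial markers fell while Zc3h12d was higher, and the microglial marker Cx3cr1 went from 25, 34.2 and 18.8 CPM in controls to 0 or 1 counts in each treated library. Of 9 lymphocyte markers, 8 were in the tables, and none was abundant enough to be tested in astrocytes, where they summed to at most 0.278 CPM in any library. In microglia the lymphocyte markers summed to 6.0, 2.51 and 9.75 CPM in controls and to at most 0.918 CPM in the treated libraries. Cd79b made up most of the sum in the controls and not in each treated library, where the sums rest on 0 to 14 counts. Cd79b, the one lymphocyte marker tested in microglia, was at 5.88, 2.12 and 9.45 CPM in controls, 0, 0.0432 and 0.285 CPM with Aβ42, and 0.482, 0.223 and 0 CPM with Aβ40. It passed the count filter through the controls, with 123 counts there against 6 with Aβ42 and 3 with Aβ40. Cd79b was called lower under each (adjusted p = 3.27e-05 and 0.00136), also with no filter (adjusted p = 3.69e-06 and 0.000421). With Aβ40 the ratio of control to treated was 21.9, with a 95% exact counting interval on the 3 treated counts from 7.49 to 106. Cd3e and Cd3g had 0 counts in all 18 libraries, and Ms4a1 had 0 counts in all 9 microglia libraries.

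The 6 fibroblast markers, led by Pdgfra in astrocyte cultures, summed to 381 to 401 CPM in astrocyte controls and 192 to 260 CPM with fibrils, with 3 of 6 lower under each fibril type. In microglia they summed to 165 to 194 CPM in controls and 182 to 225 CPM with fibrils, with 3 of 5 tested higher and 1 lower under Aβ42 and 2 higher and 2 lower under Aβ40. Their sum hides a large change: Dcn was at 0.824, 0 and 0.457 CPM in microglia controls, 84.7, 65.7 and 62.6 CPM with Aβ42, and 68.9, 61.9 and 62.9 CPM with Aβ40, and was called higher at 7.11 (adjusted p = 3.83e-09) and 7.0 (adjusted p = 5.83e-09). Dcn passed the count filter through the treated libraries, as the controls held 7, 0 and 3 counts, and with single libraries left out these values ran from 6.70 to 8.04 and from 6.60 to 7.93. Lum rose there by 2.43 and 2.26 (adjusted p = 4.70e-06 and 4.05e-05) while Pdgfra fell by 0.86 and by 0.83 (adjusted p = 3.21e-05 and 6.99e-05), and Col3a1 fell by 2.33 with Aβ40 (adjusted p = 0.000781). Col1a1 was called at 0.55 with Aβ42 in microglia and lost its call without control replicate 1 or 3 or Aβ42 replicate 2 or 3 (adjusted p from 0.0795 to 0.152). The 7 oligodendrocyte-lineage markers summed to 1506 to 2361 CPM in astrocyte controls and 1143 to 1254 CPM with fibrils, with 4 of 7 lower under each. In microglia they summed to 1849 to 2038 CPM in controls and 2105 to 2766 CPM with fibrils, with 5 of 7 higher under Aβ42 and 4 under Aβ40, among them Cspg4 at 2.24 and 1.47 (adjusted p = 3.90e-06 and 0.000351). The 4 endothelial markers summed to at most 5.74 CPM in astrocytes and 23.9 CPM in microglia, mostly Cdh5 or Pecam1, with Cldn5 at 0 counts in all 18 libraries. Of the 2 endothelial markers tested, 1 was lower under each fibril type in astrocytes, and in microglia 1 was lower under Aβ42 and 1 higher under Aβ40. The 5 neuron markers, mostly Tubb3, summed to 23.8 to 63.4 CPM in astrocytes, with 4 of 5 lower under Aβ42 and 3 under Aβ40, and to 151 to 227 CPM in microglia, with 1 of 4 tested higher under each. Some of these counts rest on single libraries. The neuron count in astrocytes with Aβ42 was 2 without control replicate 1 or Aβ42 replicate 3, and the call of Snap25 in microglia with Aβ40 was lost without any 1 of the 3 controls and Aβ40 replicates 1 and 3 (adjusted p from 0.0667 to 0.235). The call of Pecam1 in microglia with Aβ42 was lost without control replicate 1 or Aβ42 replicate 2 or 3 (adjusted p from 0.0624 to 0.202). Without microglia Aβ42 replicate 1, Col3a1, Mog, Rbfox3 and Syt1 were called lower there (−0.46, −0.57, −0.58 and −0.38).

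**Figure D2:**
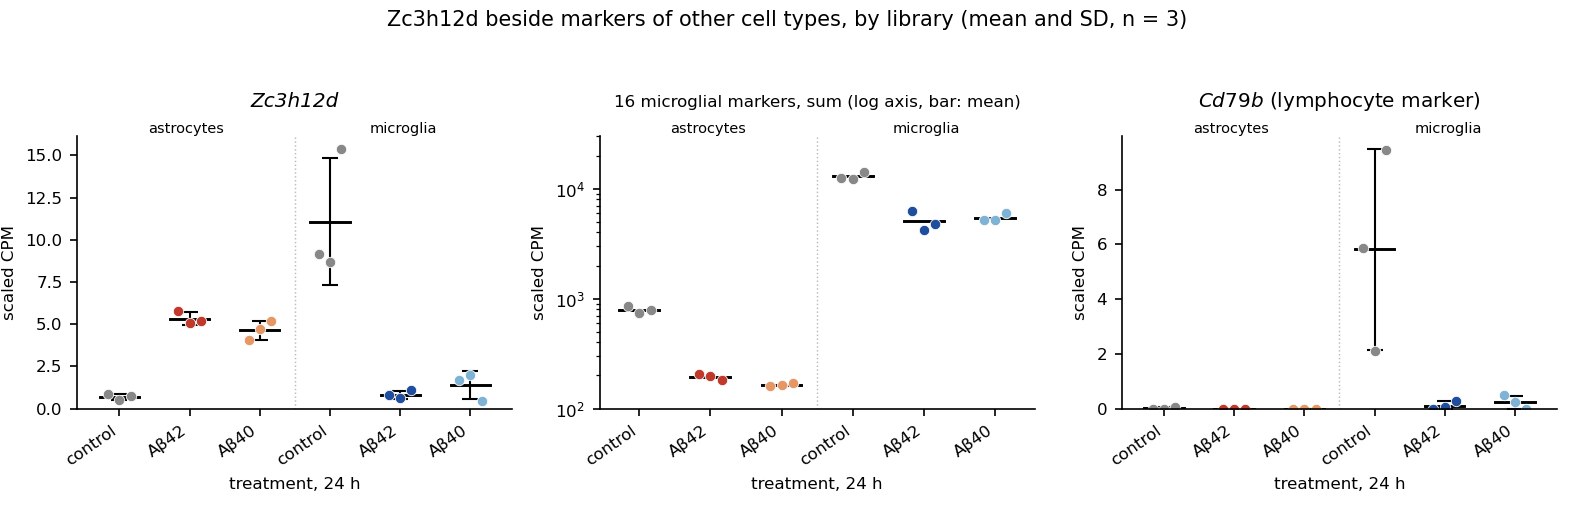
Scaled CPM (y axis; log axis in the middle panel) of Zc3h12d, the sum of 16 microglial markers and the lymphocyte marker Cd79b in the 18 libraries by treatment (x axis); points are libraries, bars the mean, with the SD of 3 in the outer panels, where it is not drawn below 0. In astrocytes Zc3h12d and the microglial markers differed from control in opposite directions, and in microglia Zc3h12d, the markers and Cd79b were all below control.

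The promoter windows of Zc3h12d, Zc3h12a and Zfp36l1, the genes with opposed or large responses, are shown because they are the stretches a reader would compare for shared letters. They run from 250 bases before to 50 bases after the start in RefSeq for build GRCr8, whereas the counts rest on rn5, so no count is placed on them. They lie at chr1:4134447-4134746 (plus strand), chr5:142669936-142670235 (minus strand) and chr6:104668641-104668940 (minus strand), and capitals mark matches to the motifs searched.
Zc3h12d: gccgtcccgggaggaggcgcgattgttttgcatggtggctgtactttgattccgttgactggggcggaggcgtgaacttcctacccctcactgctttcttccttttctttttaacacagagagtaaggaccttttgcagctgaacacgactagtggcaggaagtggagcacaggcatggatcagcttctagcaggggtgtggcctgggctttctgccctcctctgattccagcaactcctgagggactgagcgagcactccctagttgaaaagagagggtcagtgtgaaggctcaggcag
Zc3h12a: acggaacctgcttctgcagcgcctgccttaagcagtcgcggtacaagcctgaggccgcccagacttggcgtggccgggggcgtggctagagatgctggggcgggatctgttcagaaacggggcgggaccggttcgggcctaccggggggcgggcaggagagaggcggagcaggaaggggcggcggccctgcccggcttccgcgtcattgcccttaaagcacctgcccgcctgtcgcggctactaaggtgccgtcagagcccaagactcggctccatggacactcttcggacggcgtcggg
Zfp36l1: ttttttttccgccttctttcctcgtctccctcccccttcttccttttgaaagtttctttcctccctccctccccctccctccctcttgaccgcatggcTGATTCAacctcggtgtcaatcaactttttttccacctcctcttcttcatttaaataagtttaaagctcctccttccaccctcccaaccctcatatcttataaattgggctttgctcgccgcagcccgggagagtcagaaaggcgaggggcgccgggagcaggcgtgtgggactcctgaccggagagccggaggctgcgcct

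The capitals in the Zfp36l1 window are 1 match to AP-1 (TGANTCA), beginning 152 bases before the start. Both strands were searched for AP-1, PU.1 (GAGGAAG), C/EBP (TTGCNNAA), the NF-κB motif and the interferon-stimulated response element (ISRE). Among the 7 of 8 genes with a window, the only other match was 1 AP-1 match in Rc3h1, and Rc3h2 has no window in the table. Of all 33469 windows, 7.33% held AP-1, 12.4% PU.1, 10.6% C/EBP, 5.02% NF-κB and 3.92% ISRE. A match describes letters, and no match says only that these letters are not in the window.

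Zc3h12a encodes Regnase-1, the endonuclease that cuts stem-loops in Il6 and other cytokine mRNAs. In astrocytes it was at 16.7, 8.85 and 14.6 CPM in controls, 268, 236 and 163 CPM with Aβ42, and 161, 266 and 219 CPM with Aβ40. In microglia it was at 45.1, 47.7 and 45.7 CPM in controls, 369, 429 and 491 CPM with Aβ42, and 372, 415 and 429 CPM with Aβ40. Every treated library was far above every control of its cell type. Zc3h12a rose by 4.04 (SE 0.288, adjusted p = 1.28e-06) with Aβ42 and 4.0 (SE 0.288, adjusted p = 1.55e-06) with Aβ40 in astrocytes. In microglia it rose by 3.22 (SE 0.127, adjusted p = 1.77e-09) with Aβ42 and 3.14 (SE 0.127, adjusted p = 2.79e-09) with Aβ40. These 4 calls held with any 1 library left out. Aβ42 and Aβ40 differed by 0.05 in astrocytes (adjusted p = 1) and 0.09 in microglia (adjusted p = 0.585).

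Before treatment Zc3h12a was 2.03 higher in microglia than in astrocytes (adjusted p = 1.74e-07), and its rise in astrocytes was larger than that in microglia by 0.82 for Aβ42 (SE 0.295, adjusted p = 0.0343) and 0.88 for Aβ40 (SE 0.295, adjusted p = 0.0286). This difference between the cell types lay near the threshold. For Aβ42 it was no longer called without any 1 of astrocyte control replicate 2, astrocyte Aβ42 replicates 1 and 2, microglia controls 1, 2 and 3, or microglia Aβ42 replicates 1 and 2, with values from 0.64 to 0.999 over all 12 omissions and adjusted p from 0.0531 to 0.0921 where the call was lost. For Aβ40 it was lost without any 1 of astrocyte control replicate 2, astrocyte Aβ40 replicates 2 and 3, microglia control replicate 2 or microglia Aβ40 replicate 1, with values from 0.68 to 1.04 over all 12 omissions and adjusted p from 0.0515 to 0.0943 where lost. With a replicate block, neither difference was called (0.81, adjusted p = 0.0665 for Aβ42 and 0.87, adjusted p = 0.0559 for Aβ40). That block, here and below, matches libraries by replicate number. No pairing by number was stated, and 0 of 18 libraries correlated best with their own number in each other group. What the block adjusts for is thus not known.

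Zc3h12c encodes Regnase-3, a family member with the same nuclease domain, expressed in macrophages. In microglia it was at 27.1, 24.5 and 26.7 CPM in controls, 59.9, 26.3 and 28.7 CPM with Aβ42, and 59.5, 61.2 and 69.8 CPM with Aβ40. The 3 Aβ40 libraries were above all controls, whereas with Aβ42 only replicate 1, the library that stood apart, was clearly above them. Zc3h12c rose by 1.27 (SE 0.252, adjusted p = 0.00147) with Aβ40 and was not called with Aβ42 (0.43, SE 0.251, adjusted p = 0.163). Without microglia Aβ42 replicate 1 the Aβ42 value was 0.06, and without Aβ42 replicate 2 it was called at 0.67 (adjusted p = 0.0467). In astrocytes Zc3h12c was at 4.73, 8.37 and 6.40 CPM in controls, 10.2, 8.49 and 9.84 CPM with Aβ42, and 8.52, 8.45 and 6.70 CPM with Aβ40. Each Aβ42 library was above each control there, yet Zc3h12c was not called with Aβ42 (0.55, unadjusted p = 0.0254, adjusted p = 0.0646), nor with Aβ40, where groups overlapped (0.27, adjusted p = 0.358). Without astrocyte control replicate 2 the Aβ42 value was called at 0.70 (adjusted p = 0.0131), and without both that library and Aβ42 replicate 3 at 0.67 (adjusted p = 0.0287).

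Untreated microglia had more Zc3h12c than untreated astrocytes, by 2.25 (adjusted p = 2.84e-07). Its change in astrocytes minus that in microglia was 0.10 for Aβ42 (adjusted p = 0.858) and −0.99 for Aβ40 (SE 0.351, adjusted p = 0.0374). The Aβ40 call was lost without any 1 of 11 of the 12 libraries, all but astrocyte control replicate 1, with adjusted p from 0.0503 to 0.0969 where lost and values from −1.14 to −0.83. In RefSeq, Zc3h12c overlaps Rdx and a long noncoding RNA gene. Reads listed as ambiguous were kept apart from the counts on genes. Whether the counting used the strand of the reads was not stated, so how reads from the overlap were treated cannot be told.

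Zfp36 encodes tristetraprolin, which binds AU-rich elements in Tnf and other mRNAs. In microglia it was at 110, 103 and 116 CPM in controls, 273, 150 and 178 CPM with Aβ42, and 246, 283 and 287 CPM with Aβ40. Every treated microglia library exceeded every control, and Aβ42 replicate 1 was the highest of its group. Zfp36 rose by 0.85 (SE 0.182, adjusted p = 0.00202) with Aβ42 and 1.31 (SE 0.184, adjusted p = 0.00011) with Aβ40, and both calls held with any 1 library left out. Without Aβ42 replicate 1 the Aβ42 value was 0.57 (adjusted p = 6.50e-05). In astrocytes the 9 libraries lay between 107 and 185 CPM with overlapping groups, and Zfp36 was not called with Aβ42 (0.03, SE 0.252, adjusted p = 0.946) or Aβ40 (0.12, SE 0.252, adjusted p = 0.755). The Aβ42 value was −0.02 when library totals replaced TMM.

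The change of Zfp36 in astrocytes minus that in microglia was −1.17 for Aβ40 (SE 0.320, adjusted p = 0.00827), a call that held with any 1 of 12 libraries left out. For Aβ42 it was −0.81 (SE 0.319, adjusted p = 0.0527) and not called. The Aβ42 difference was called without any 1 of astrocyte control replicates 2 and 3, astrocyte Aβ42 replicate 1 or microglia Aβ42 replicate 2, with adjusted p from 0.0208 to 0.036 there and values from −0.99 to −0.56 over all omissions. It was also called with median-of-ratios factors, library totals, DESeq2, no filter and 10 counts in every library (adjusted p from 0.0342 to 0.049). Untreated astrocytes and microglia differed by −0.03 (adjusted p = 0.923).

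Zfp36l1 encodes a tristetraprolin relative, also known as BRF1, that binds the same AU-rich elements. In astrocytes it was at 683, 576 and 523 CPM in controls, 926, 886 and 825 CPM with Aβ42, and 823, 1029 and 857 CPM with Aβ40. In microglia it was at 366, 359 and 417 CPM in controls, 279, 158 and 165 CPM with Aβ42, and 265, 258 and 322 CPM with Aβ40. Treated astrocyte libraries were all above their controls and treated microglia libraries were all below theirs. Zfp36l1 rose in astrocytes by 0.57 with Aβ42 (SE 0.135, adjusted p = 0.00678) and 0.60 with Aβ40 (SE 0.135, adjusted p = 0.00518). In microglia it fell by 0.94 with Aβ42 (SE 0.191, adjusted p = 0.00138), and without Aβ42 replicate 1 by 1.24 (adjusted p = 2.40e-08), while the change with Aβ40 was −0.44 and was not called (SE 0.191, adjusted p = 0.0873). It was called there when library totals replaced TMM (−0.47, adjusted p = 0.0433) and when the Aβ40 and control libraries were fitted alone (−0.44, adjusted p = 0.00136).

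The response of Zfp36l1 differed between the cell types, with astrocytes minus microglia at 1.52 for Aβ42 (SE 0.236, adjusted p = 5.33e-05) and 1.06 for Aβ40 (SE 0.236, adjusted p = 0.00179). These calls, and the called fibril changes of Zfp36l1, held with any 1 library left out. Of 10211 genes tested in both cell types, 270 were called higher in astrocytes and lower in microglia with Aβ42 (2.64%), and of the 6 genes Zfp36l1 was the 1 among them. Untreated microglia had less Zfp36l1 than astrocytes, at −0.39 (SE 0.166, adjusted p = 0.0440), and this was not called without astrocyte control replicate 1 or microglia control replicate 1 or 2 (adjusted p from 0.111 to 0.129, values over all omissions from −0.48 to −0.33). With a replicate block this difference was −0.32 and was not called (adjusted p = 0.224).

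Zfp36l2 encodes the remaining rat tristetraprolin relative in the tables, which acts on AU-rich elements as well. In microglia it was at 16.9, 16.2 and 23 CPM in controls, 9.19, 9.60 and 9.74 CPM with Aβ42, and 8.20, 7.82 and 13.8 CPM with Aβ40. All treated microglia libraries were below all controls. Zfp36l2 fell by 0.96 with Aβ42 (SE 0.194, adjusted p = 0.0013) and by 0.996 with Aβ40 (SE 0.224, adjusted p = 0.00347), and both calls held with any 1 library left out. In astrocytes it was at 35.3, 15.5 and 22.1 CPM in controls, 16.6, 11.4 and 6.84 CPM with Aβ42, and 7.38, 27.1 and 16.4 CPM with Aβ40. The lowest value of each group lay in control replicate 2, Aβ42 replicate 3 and Aβ40 replicate 1, the libraries whose deviations went together. These libraries also held the lowest astrocyte values of their groups for Zc3h12a and Zfp36. Zfp36l2 was not called there with Aβ42 (−1.02, SE 0.462, adjusted p = 0.110) or Aβ40 (−0.48, SE 0.449, adjusted p = 0.450). Without astrocyte control replicate 2, the Aβ42 value was called at −1.19 (adjusted p = 0.0381). With single libraries left out, the astrocyte values ran from −1.38 to −0.69 with Aβ42 and from −0.996 to −0.14 with Aβ40. The change of Zfp36l2 in astrocytes minus that in microglia was −0.06 for Aβ42 and 0.52 for Aβ40, and untreated microglia minus astrocytes was −0.11, none of them called.

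Rc3h2 encodes Roquin-2, which binds stem-loops in Icos, Tnf and other mRNAs. In microglia it was at 39.4, 45.2 and 42.8 CPM in controls, 50.7, 23.7 and 25.8 CPM with Aβ42, and 45.8, 57.0 and 53.7 CPM with Aβ40. The Aβ42 libraries were split, with replicate 1 above all controls and replicates 2 and 3 below them. Rc3h2 was not called with Aβ42 (−0.46, SE 0.231, adjusted p = 0.111) or Aβ40 (0.30, SE 0.232, adjusted p = 0.336). Without Aβ42 replicate 1, it was lower by a called −0.78 (adjusted p = 8.61e-06), and with the Aβ40 and control libraries fitted alone the Aβ40 value was called at 0.31 (adjusted p = 0.0289). In astrocytes Rc3h2 was at 6.95, 22.7 and 15.0 CPM in controls and between 14.9 and 16.4 CPM with fibrils, not called under Aβ42 (0.09) or Aβ40 (0.04), the latter being −0.02 with library totals in place of TMM.

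Untreated microglia had more Rc3h2 than astrocytes, by 1.74 (SE 0.278, adjusted p = 1.62e-05). The change in astrocytes minus that in microglia was not called for Aβ42 (0.54, adjusted p = 0.293) or Aβ40 (−0.24, adjusted p = 0.671). For Aβ42 it was called without astrocyte control replicate 2 (0.88, adjusted p = 0.0355) and without microglia Aβ42 replicate 1 (0.86, adjusted p = 0.04). In RefSeq, Rc3h2 overlaps Zbtb6l1, Nme2-ps2 and Snord90, and the limit given for Zc3h12c holds here too.

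**Figure D3:**
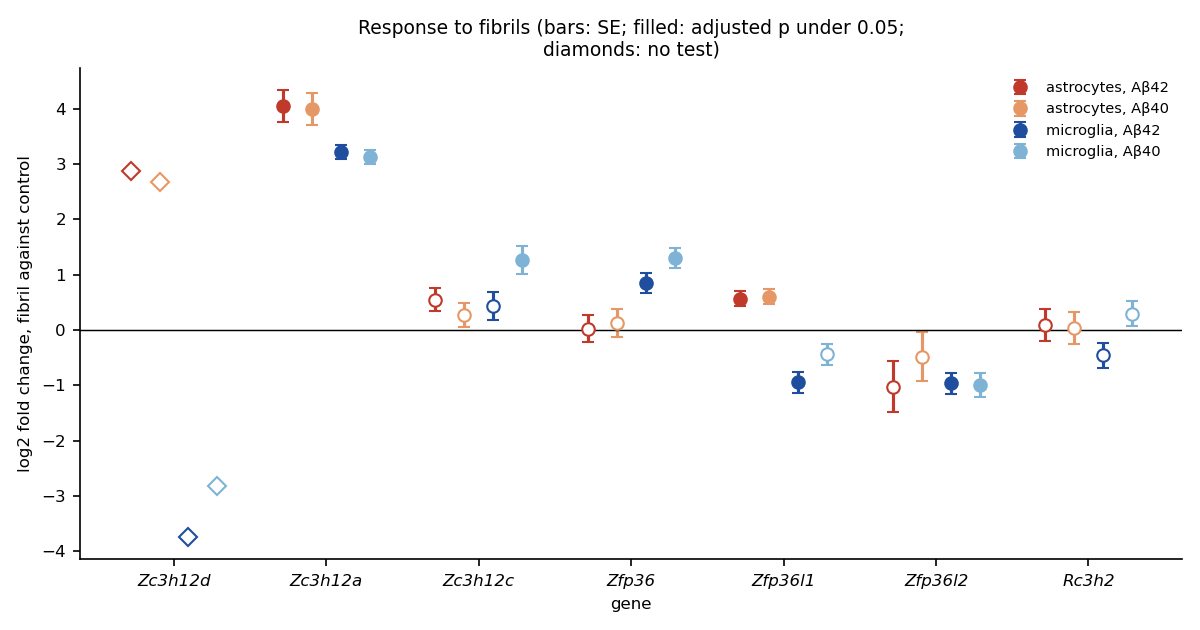
Log2 fold change, fibril against control (y axis), of the 7 genes (x axis) in astrocytes and microglia with Aβ42 or Aβ40; bars are the SE, filled points had an adjusted p under 0.05 and diamonds mark Zc3h12d, which has no test. Zfp36l1 was above 0 in astrocytes and below 0 in microglia, and Zc3h12a lay between 3.14 and 4.04 in all 4 comparisons.

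The fibril types were compared with each other on all 7 genes, Zc3h12d included with the limit given above. In astrocytes, edgeR called 0 of 7, against 0.0855% of all genes tested, with 0 of 7 at an unadjusted p under 0.05 and 0 of 7 by DESeq2. In microglia, 2 of 7 were called (20.3% of all genes), with less Zc3h12c (−0.84, SE 0.249, adjusted p = 0.0378) and less Rc3h2 (−0.76, SE 0.237, adjusted p = 0.0434) under Aβ42 than under Aβ40. These calls turned on single libraries, as did the count over all genes, which was 2198 with every library. Without microglia Aβ42 replicate 1, 6004 genes were called, among them Zc3h12c (−1.20, adjusted p = 3.98e-07), Rc3h2 (−1.08, adjusted p = 2.14e-06), Zfp36 (−0.73, adjusted p = 1.87e-05) and Zfp36l1 (−0.80, adjusted p = 1.42e-05). In that fit both Aβ42 libraries were far deeper than every Aβ40 library, so fibril type and depth cannot be told apart there. Without any 1 of microglia Aβ42 replicates 2 and 3 and Aβ40 replicates 1, 2 and 3, between 99 and 154 genes were called and none of the 7. Zc3h12c then had adjusted p from 0.0943 to 0.176 and Rc3h2 from 0.0933 to 0.196. Both calls were also lost with a replicate block (adjusted p = 0.0538 for Zc3h12c and 0.074 for Rc3h2). The same held with the 2 compared groups alone (adjusted p = 0.101 and 0.112).

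Between the cell types, the response to Aβ42 differed for 2 of the 6 genes other than Zc3h12d, Zc3h12a and Zfp36l1, against 37.3% of 11581 genes. The response to Aβ40 differed for 4 of 6, Zc3h12a, Zc3h12c, Zfp36 and Zfp36l1, against 32.5% of genes. Left-out libraries took these counts to between 1 and 3 for Aβ42 and between 2 and 4 for Aβ40, through the genes and libraries named above. With median-of-ratios factors, library totals, DESeq2 or no filter, the Aβ42 count was 3, Zfp36 being the gene added, and with a replicate block it was 1, Zfp36l1. Before treatment 4 of the 6 differed between cell types, Zc3h12a, Zc3h12c and Rc3h2 being higher in microglia and Zfp36l1 lower, against 68.8% of genes called. With library totals in place of TMM, the median untreated difference of all genes moved to −0.28, and the same 4 genes were called.

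The machinery that these factors recruit was followed through lists of genes. Their counts stand beside the shares of all genes called higher and lower, which were 16.5% and 20.4% in astrocytes with Aβ42, 14.9% and 18.4% with Aβ40, and in microglia 27.1% and 26.6% with Aβ42 and 19.6% and 21.4% with Aβ40. With 8 to 17 genes tested in a list, nothing particular to a list is read from these counts. Of 17 deadenylase genes tested, 1 was higher and 0 lower in astrocytes under each fibril type, and in microglia 3 were higher and 5 lower under Aβ42 and 2 higher and 2 lower under Aβ40. Btg1, an adaptor that links the CCR4-NOT deadenylase to its targets, rose in astrocytes by 1.93 and 1.52 and in microglia by 1.13 and 1.01 with Aβ42 and Aβ40 (adjusted p at most 4.12e-06). In microglia its relative Btg2 rose by 1.03 and 1.06, the adaptor Tob2 changed by −0.83 and −0.90, and the deadenylase Cnot6l by −1.30 and −0.71 (adjusted p at most 0.00827 for these 3). The astrocyte calls were for Btg1 alone. The median log2 change of the 17 was −0.0014 and 0.02 in astrocytes and −0.07 and 0.04 in microglia with Aβ42 and Aβ40, beside −0.0047, 0.0017, 0.0096 and 0.0054 for all genes, and later list medians are given in the same order.

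Of 9 decapping and 5′ decay genes tested, 3 were higher and 0 lower in astrocytes under each fibril type, and in microglia 1 was higher and 3 lower under Aβ42 and 0 higher and 1 lower under Aβ40 (medians 0.41, 0.22, −0.21 and 0.17). In astrocytes Lsm1, part of a ring that activates decapping, rose by 0.84 with Aβ42 and 0.86 with Aβ40 (adjusted p = 0.000891 and 0.000846), and the decapping enzyme Dcp2 rose by 1.16 with Aβ42 (adjusted p = 0.0112). The 5′ exonuclease gene Xrn1 was called at 0.81 with Aβ40 in astrocytes (adjusted p = 0.0245), a call lost without control replicate 3 or any 1 Aβ40 replicate (adjusted p from 0.0508 to 0.066). In microglia with Aβ42, Xrn1 (−0.58) and Dcp2 (−0.71) were called lower and lost their calls without control replicate 1 or 3 or Aβ42 replicate 2 or 3 (adjusted p from 0.0535 to 0.0891 and from 0.0613 to 0.180). Lsm14a was called at 0.26 there and lost its call without control replicate 1 or 2 or Aβ42 replicate 2 or 3 (adjusted p from 0.0654 to 0.0919). With Aβ40, Lsm1 was called at −0.38 in microglia and lost its call without control replicate 1 or 3 or Aβ40 replicate 1 or 3 (adjusted p from 0.0866 to 0.207).

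Of the exosome genes, which degrade RNA from the 3′ end, 10 were tested in astrocytes and 11 in microglia. In astrocytes 0 were higher and 1 lower under each fibril type, and in microglia 1 was higher and 3 lower under Aβ42 and 0 higher and 1 lower under Aβ40 (medians 0.04, 0.07, −0.19 and −0.05). In astrocytes Exosc8 fell by 1.11 with Aβ42 (adjusted p = 0.00384) and by 1.09 with Aβ40 (adjusted p = 0.00457), and without control replicate 2 by 0.74 and by 0.72, still called. In microglia with Aβ42 the nuclease genes Dis3 and Dis3l fell by 0.85 (adjusted p = 0.00419) and by 0.73 (adjusted p = 0.00202). Exosc4 was called at 0.77 there and lost its call without control replicate 2 or Aβ42 replicate 2 or 3 (adjusted p from 0.0737 to 0.0965). With Aβ40, Exosc5 was called at −0.74 in microglia and lost its call without any 1 of control replicates 2 and 3 and the 3 Aβ40 replicates (adjusted p from 0.0604 to 0.111).

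Among 10 tested partners and regulators of Regnase-1, which include the kinases and the ligase that mark the protein for destruction, 4 were higher and 0 lower in astrocytes under Aβ42 and 3 higher and 1 lower under Aβ40. In microglia 3 were higher and 4 lower under Aβ42 and 4 higher and 2 lower under Aβ40 (medians 0.45, 0.37, −0.11 and 0.06). N4bp1, an endonuclease gene related to the Regnases, rose in microglia by 2.01 with Aβ42 (adjusted p = 1.11e-08) and 2.09 with Aβ40 (adjusted p = 1.03e-08), and in astrocytes by 0.73 and 0.70 (adjusted p = 0.00089 and 0.00131). Ikbkb, which encodes the kinase IKKβ that phosphorylates Regnase-1, rose in astrocytes by 1.4 and 1.49 (adjusted p = 4.25e-06 and 3.06e-06). In microglia Chuk, encoding IKKα, rose by 0.41 and 0.52 (adjusted p = 0.0191 and 0.00791), and the kinase gene Irak1 changed by −0.54 and −0.56 (adjusted p = 0.000869 and 0.000976). Without microglia Aβ42 replicate 1 the Aβ42 value of Chuk was 0.25 and still called, and without control replicate 3 its call was lost (adjusted p = 0.0543).

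Arid5a, encoding a protein that shields Il6 mRNA from Regnase-1, changed in microglia by −0.63 with Aβ42 (adjusted p = 0.00529) and −0.58 with Aβ40 (adjusted p = 0.0142). The Aβ40 call was lost without control replicate 1 or 3 or Aβ40 replicate 1 or 3 (adjusted p from 0.0513 to 0.0669). Irak1 was also called at −0.34 in astrocytes with Aβ40 (adjusted p = 0.0256) and lost its call without control replicate 1 or Aβ40 replicate 1 or 3 (adjusted p from 0.0532 to 0.116). This call was also lost with no filter, a replicate block and the 2 compared groups alone (adjusted p = 0.0536, 0.0735 and 0.0995).

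The axis that sets the phosphorylation of tristetraprolin, with p38, its kinases MK2 and MK3 and the phosphatase DUSP1, had 8 genes tested. In astrocytes 4 were higher and 0 lower under each fibril type, and in microglia 6 were higher and 0 lower under Aβ42 and 3 higher and 1 lower under Aβ40 (medians 0.36, 0.31, 0.42 and 0.28). Mapkapk2, encoding MK2, which phosphorylates and thereby restrains tristetraprolin, rose in astrocytes by 2.41 with Aβ42 (adjusted p = 2.44e-07) and 2.15 with Aβ40 (adjusted p = 6.08e-07). Mapkapk3, encoding MK3, rose in astrocytes by 0.81 and 0.64 (adjusted p = 0.00125 and 0.00566) and in microglia by 0.67 and 0.41 (adjusted p = 0.000341 and 0.0114), the last no longer called without Aβ40 replicate 1 (adjusted p = 0.0566). Dusp1, whose product turns p38 off, rose in microglia by 2.24 with Aβ42 (adjusted p = 5.22e-08) and 1.73 with Aβ40 (adjusted p = 7.74e-07). Mapk14, encoding p38α, fell by 0.68 in microglia with Aβ40 (adjusted p = 0.00141).

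Of 9 other proteins that bind AU-rich or related elements, 0 were called in astrocytes under either fibril type, and in microglia 0 were higher and 3 lower under Aβ42 and 0 higher and 1 lower under Aβ40 (medians 0.0024, 0.05, −0.16 and 0.06). Celf2 fell in microglia by 1.12 with Aβ42 (adjusted p = 2.47e-05) and by 0.64 with Aβ40 (adjusted p = 0.00237). Pum2 was called at −0.41 with Aβ42 (adjusted p = 0.0382). Without Aβ42 replicate 1 it stood at −0.63, and its call was lost without any 1 of the other 5 libraries compared, the 3 controls and Aβ42 replicates 2 and 3 (adjusted p from 0.0739 to 0.158).

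The mRNAs on which these factors are known to act were listed as well. Of 26 such targets, 20 could be tested in astrocytes and 23 in microglia. Il2, Nfkbid and Tnfrsf4 had too few counts or no symbol in either cell type, and Il12b, Il10 and Icos were not tested in astrocytes. In astrocytes 15 were higher and 2 lower under each fibril type (16.5% and 14.9% of all genes were higher with Aβ42 and Aβ40), and in microglia 21 were higher and 0 lower under Aβ42 and 22 higher and 0 lower under Aβ40 (27.1% and 19.6% of all genes were higher). The targets were listed with earlier results of these data known, and some, such as Il6, Csf2 and Csf3 in astrocytes, passed the count filter through the treated libraries. The median log2 change of the tested targets was 5.04 and 4.56 in astrocytes and 4.29 and 4.59 in microglia with Aβ42 and Aβ40. With the targets that had 1 to 3 counts over all controls set to their lower bound, the medians were 4.72, 4.41, 4.29 and 4.59. When only genes with 10 counts in every library were kept, 5 of 9 targets tested were called higher in astrocytes under each fibril type, and 17 and 18 of 19 in microglia with Aβ42 and Aβ40.

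Il6, which Regnase-1 cuts, was at 0, 0 and 0.141 CPM in astrocyte controls, 8.10, 9.09 and 10.6 CPM with Aβ42, and 7.27, 7.65 and 6.04 CPM with Aβ40. In microglia Il6 was at 2.12, 1.93 and 0.152 CPM in controls, 380, 253 and 303 CPM with Aβ42, and 339, 312 and 412 CPM with Aβ40. No treated library overlapped a control, and 2 of the 3 astrocyte controls held no Il6 count. The 3 astrocyte controls held 2 Il6 counts together, so the ratio to control was 99.3 with Aβ42, with a 95% exact counting interval on the control counts from 27.5 to 820, and 77.1 with Aβ40, from 21.3 to 636. Both counts lay in astrocyte control replicate 3, so these ratios rest on that library. In microglia Il6 rose by 7.75 (adjusted p = 5.35e-09) and 7.94 (adjusted p = 5.65e-09). Csf2 and Csf3 each had 1 count over the 3 astrocyte controls, and their ratios with Aβ42 were 359 (64.4 to 14180) and 1321 (237 to 52170). With Aβ40 those of Csf2 and Csf3 were 206 (37.0 to 8131) and 676 (121 to 26700).

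Tnf, the best-known target of tristetraprolin, rose in astrocytes by 3.53 and 2.83 (adjusted p = 6.48e-05 and 0.000388) and in microglia by 3.26 and 3.54 (adjusted p = 1.24e-09 and 1.16e-09) with Aβ42 and Aβ40. Without astrocyte control replicate 3 the astrocyte Aβ40 value of Tnf was 4.35 (adjusted p = 0.000336). Il1b rose by 7.07 and 6.70 in astrocytes and by 4.27 and 4.35 in microglia. Nos2, which was at 0.834, 1.91 and 0.422 CPM in astrocyte controls and between 316 and 573 CPM with fibrils, rose by 9.39 and 8.63, and in microglia by 4.56 and 5.29. Chemokine mRNAs were called higher in all 4 comparisons, with Cxcl2 at 8.61, 8.0, 6.31 and 6.13, Cxcl1 at 5.83, 5.55, 6.19 and 6.40, Cxcl3 at 7.57, 7.24, 6.96 and 6.84, Ccl2 at 3.67, 3.34, 4.29 and 4.59, and Ccl3 at 4.67, 4.40, 3.29 and 3.67. In the same order Ptgs2 was at 5.41, 4.72, 7.05 and 7.28, Lcn2 at 6.60, 6.25, 5.75 and 5.92, Ier3 at 2.61, 2.15, 3.82 and 3.70, and Nfkbiz at 4.19, 3.97, 1.63 and 1.69. In microglia Csf2 stood at 7.13 and 7.66, Csf3 at 7.87 and 7.59, and Il10 at 1.83 and 1.71, all called. Il12b had 2 counts over the 3 microglia controls, and its ratios were 72.9 (20.2 to 602) and 173 (48.0 to 1431).

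Some targets did not follow this pattern. The iron-uptake receptor mRNA Tfrc, a Regnase-1 and Roquin target, fell in astrocytes by 0.79 (adjusted p = 0.00472) and by 1.01 (adjusted p = 0.00113) with Aβ42 and Aβ40. In microglia it rose by 0.69 with Aβ42 (adjusted p = 8.66e-05) and was called at 0.30 with Aβ40 (adjusted p = 0.0274), a call lost without any 1 of control replicates 1, 2 and 3 and Aβ40 replicates 1 and 2 (adjusted p from 0.0540 to 0.112). The difference of Tfrc between the cell types was −1.47 (adjusted p = 2.10e-05) and −1.29 (adjusted p = 9.77e-05). Myc fell in astrocytes by 0.62 with Aβ40 (adjusted p = 0.00678). With Aβ42 it was called there at −0.40 (adjusted p = 0.0491), and the call was lost without any 1 of control replicates 1 and 2 and Aβ42 replicates 1, 2 and 3 (adjusted p from 0.0766 to 0.161), with a replicate block and in 3 other settings. In microglia Myc was not called, and without Aβ42 replicate 1 it was called at −0.31 with Aβ42 (adjusted p = 0.004). Il23a was not called in astrocytes (−0.01 and −0.04) and rose in microglia by 6.03 and 6.26, with the change in astrocytes minus that in microglia at −6.04 for Aβ42 (adjusted p = 3.73e-09). Vegfa was not called in astrocytes (−0.12 and −0.42, adjusted p = 0.555 and 0.0514) and rose in microglia by 2.43 and 1.23. Its astrocyte Aβ40 value was called without Aβ40 replicate 2 (−0.57, adjusted p = 0.0136), without control replicate 2 (−0.40, adjusted p = 0.0391), by DESeq2 and with either other scaling. Fos rose in microglia by 0.78 and 0.82 and was not called in astrocytes, except without control replicate 2 (−0.76, adjusted p = 0.000327, and −0.66, adjusted p = 0.000981). Icos was called in microglia with Aβ40 (0.65, adjusted p = 0.0209) but not with Aβ42 (0.06), and the Aβ40 call was lost without Aβ40 replicate 1 or 3 or control replicate 2 (adjusted p from 0.0534 to 0.0730).

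**Figure D4:**
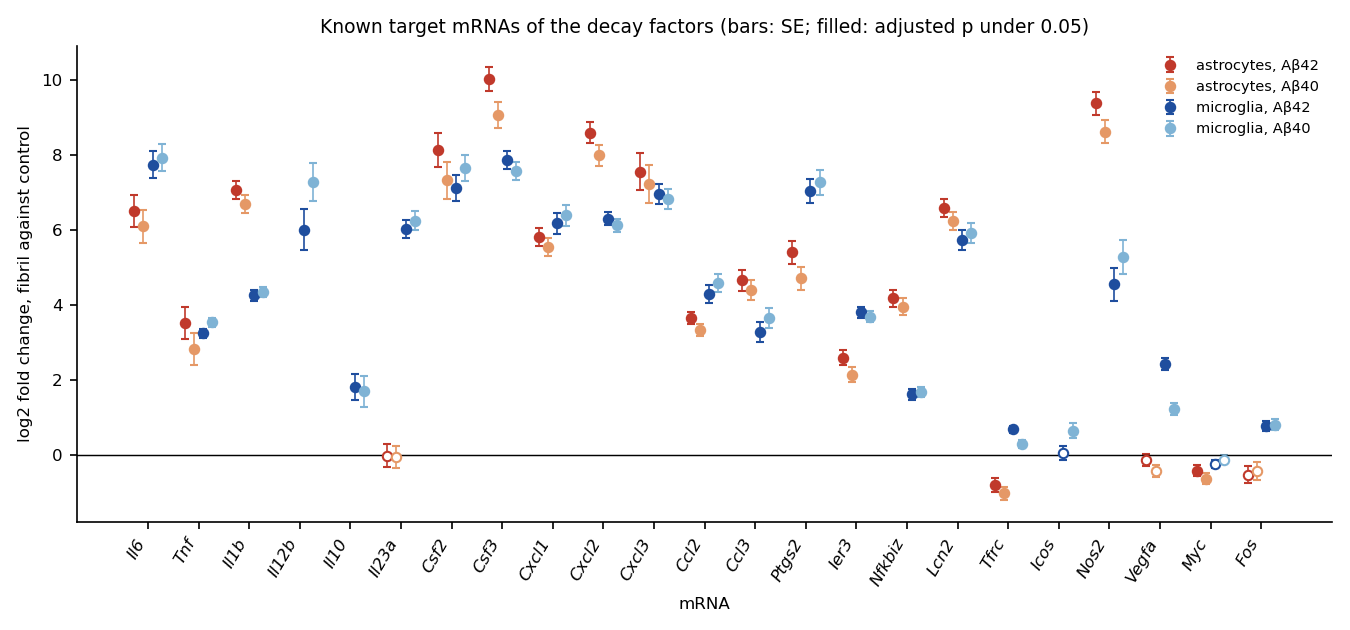
Log2 fold change, fibril against control (y axis), of the listed target mRNAs (x axis) in astrocytes and microglia with Aβ42 or Aβ40; bars are the SE and filled points had an adjusted p under 0.05. Values reached 10.03 for Csf3 in astrocytes with Aβ42, where the controls held 1 count, while Tfrc and Myc lay below 0 in astrocytes.

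Zc3h12d was last compared with every other gene by Pearson correlation of log2 CPM over the 18 libraries, which share their cell types, treatments and depths. Of 11580 genes, Mccc1 (r = 0.933), Rnf216 (0.921), Pik3cd (0.915), Zbp1 (0.913) and Dhrs9 (0.908) were most like it, with Spearman rho of 0.893, 0.876, 0.905, 0.887 and 0.800. After the mean of each cell type was taken out, the closest were Zbp1 (r = 0.968), Acsbg1 (0.961), Pik3cd (0.955), Dapp1 (0.952) and Mccc1 (0.945), with rho of 0.899, 0.913, 0.893, 0.895 and 0.901. By Spearman rank, 1 of the 5 genes stayed among the top 5 in either case, and with a prior count of 0.5 all 5 did. In astrocytes and microglia with Aβ42, the log2 change was 3.63 and −3.33 for Zbp1, 1.76 and −2.73 for Pik3cd, 0.77 and −0.89 for Mccc1, and 4.18 and −4.64 for Dhrs9.

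Among the decay factors themselves, only Zfp36l1 came near Zc3h12d, with r = 0.405 (rank 1443 of 11580) as measured and 0.780 (rank 341) after the cell type means were taken out. The other 5 genes tested lay between −0.486 for Zfp36 and 0.159 for Rc3h2 on the latter measure. Since Zc3h12d was chosen for its pattern, these values describe that pattern and carry no test.

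**Figure D5:**
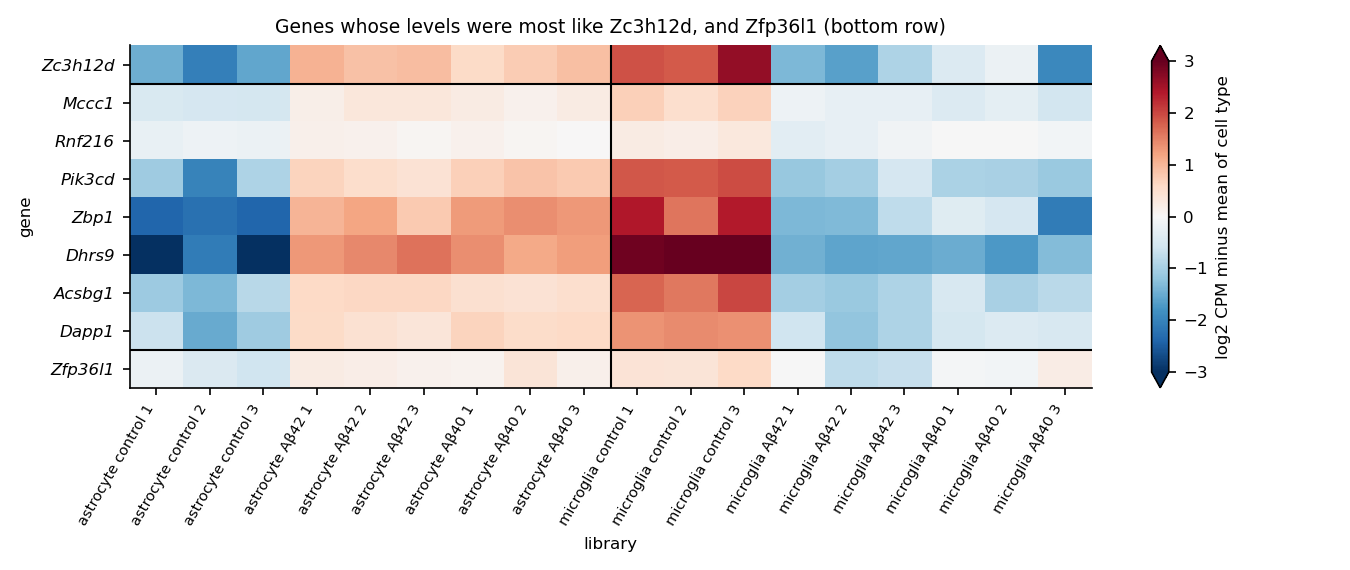
Log2 CPM minus the mean of the cell type (colour, from −3 to 3) in the 18 libraries (x axis) for Zc3h12d (top), the genes most like it, and Zfp36l1 (bottom). Zc3h12d and the genes like it were above their cell type mean in treated astrocytes and untreated microglia, and r with Zc3h12d ran up to 0.968 for Zbp1.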

How the data were processed

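Poly(A) RNA of 18 libraries, 3 for each of 2 cell types and 3 treatments, was compared. The deposited files hold read counts per gene symbol. The submitters name STAR for alignment to UCSC rn5, Salmon for quantification and DESeq2 for gene counts, without versions, and how the counts in these files were made was not stated further. Of the counts in each library, 21.7% to 34.3% were listed as no feature or as ambiguous, and these were left out of the counts on genes. The members and lists were chosen with earlier results of these data known.

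Each cell type was fitted separately in edgeR 4.0.16 (R 4.3.3) with TMM scaling, filterByExpr (minimum count 10, minimum total 15) and quasi-likelihood F tests. A fit of all 18 libraries gave the interactions and the untreated comparison. All p-values were adjusted by the Benjamini-Hochberg method over all genes tested, with a threshold of 0.05. Log2 CPM for correlations used a prior count of 2. Gene lists covered deadenylases, decapping, the exosome, Regnase partners, the tristetraprolin kinase axis, other AU-rich element binding proteins, target mRNAs and cell type markers. For each list except targets and markers, the 2 genes with the smallest p in each direction were named, and the 5 genes most like Zc3h12d. Intervals and floors (3 counts) cover counting error only, since no molecular barcodes were used. Alternatives were size factors by median of ratios, library totals, DESeq2 1.42.0, other filters, fits of 2 groups, a replicate block and each library left out. The code was tested on simulated data.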

Additional observations from a re-analysis of the deposited data

Results flagged for a closer look

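The test of the difference between cell types picked out these genes, each given as the log2 change in astrocytes minus that in microglia. For Aβ42 these were Zc3h12a (0.82) and Zfp36l1 (1.52). For Aβ40 these were Zc3h12a (0.88), Zfp36l1 (1.06), Zc3h12c (−0.99) and Zfp36 (−1.17). These calls were not equally firm. Zfp36l1 for both fibril types and Zfp36 for Aβ40 were called with any 1 of 12 libraries left out, whereas Zc3h12a lost its call in 8 of 12 omissions for Aβ42 and 5 of 12 for Aβ40, and Zc3h12c in 11 of 12. The difference for Zc3h12d was 6.60 for Aβ42 and 5.52 for Aβ40, with all treated astrocyte libraries above and all treated microglia libraries below their controls, and it was not tested because the gene was chosen on these values.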

How the results depend on the processing

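Of 872 recomputed values of the decay factors, 777 kept their direction and, where tested, their call. Of the rest, 45 lost a call, 20 gained one and 30 reversed direction, all 30 where no call was made. The cause of these changes was not tested. The 872 include Zc3h12d, whose values against control, between cell types and untreated have no test. Those values could keep a direction only and rest on values its choice used, so no stability is read from them. Zfp36 in astrocytes with Aβ42 and Rc3h2 in astrocytes with Aβ40 were −0.018 and −0.022 with library totals, Zfp36l2 in microglia, Aβ42 against Aβ40, was −0.015 with a replicate block, and the Aβ42 difference of Zc3h12c between cell types was −0.0047 by DESeq2.

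With single libraries left out, in astrocytes against control, Zfp36 ranged from −0.15 to 0.31 with Aβ42 and −0.090 to 0.40 with Aβ40, and Rc3h2 from −0.18 to 0.39 and −0.24 to 0.34. For Aβ42 against Aβ40 in astrocytes, Zc3h12a ranged from −0.13 to 0.22, Zfp36 from −0.27 to 0.12 and Zfp36l1 from −0.10 to 0.063, and in microglia Zc3h12a from −0.018 to 0.18 and Zfp36l2 from −0.12 to 0.26. The difference between cell types ranged for Aβ42 from −0.12 to 0.47 (Zc3h12c) and −0.41 to 0.21 (Zfp36l2), and for Aβ40 from −0.00073 to 0.85 (Zfp36l2) and −0.55 to 0.067 (Rc3h2). Untreated, Zfp36 ranged from −0.15 to 0.19 and Zfp36l2 from −0.30 to 0.15.

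The number of genes called ranged with single libraries left out from 2 to 4 in astrocytes with Aβ42, 4 to 5 in microglia with Aβ42, 0 to 4 for Aβ42 against Aβ40 in microglia, 1 to 3 and 2 to 4 for the Aβ42 and Aβ40 differences between cell types, and 3 to 4 untreated. With a replicate block, microglia Aβ42 against Aβ40 went from 2 to 0 (Zc3h12c, adjusted p = 0.0538; Rc3h2, adjusted p = 0.074), the Aβ42 difference between cell types from 2 to 1 and the Aβ40 difference from 4 to 3 (Zc3h12a, adjusted p = 0.0665 and 0.0559), and the untreated comparison from 4 to 3 (Zfp36l1, adjusted p = 0.224). With the 2 compared groups alone, microglia Aβ42 against Aβ40 gave 0 and microglia Aβ40 gave 6. The Aβ42 difference of Zfp36 was called with median-of-ratios factors, library totals, DESeq2, no filter and 10 counts in every library (adjusted p from 0.0342 to 0.049), and that of Zc3h12a was not called with 10 counts in every library (adjusted p = 0.0574). That filter left no value for Zc3h12d. Libraries of the same number were no more alike: 0 of 18 correlated best with their own number in each other group.

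Without both astrocyte control replicate 2 and Aβ42 replicate 3, chosen after seeing the data, the genes called in astrocytes went from 2 to 3 with Aβ42 (Zc3h12c added), and the Aβ40 difference between cell types from 4 to 3 (Zc3h12c lost, adjusted p = 0.0909). The other 4 counts of decay factors and their genes were as before. Over all genes tested, those called for Aβ42 against Aβ40 in astrocytes went from 10 to 120. Astrocyte Aβ40 replicate 1, whose deviations went with those of the libraries left out, was kept. The Aβ40 group thus kept a library of the kind that the control and Aβ42 groups lost, which limits this check.

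Of 635 values of named list genes, 54 lost a call and 0 reversed. These, and the counts of targets, were chosen after seeing the data. Apart from omissions, Irak1 and Xrn1 in astrocytes with Aβ40 lost calls under other settings. So did Lsm1 in microglia with Aβ40, and Dcp2, Xrn1, Lsm14a and Pum2 in microglia with Aβ42. Adjusted p in those settings ran from 0.0536 to 0.102. Targets called higher ranged from 5 to 16 and 5 to 15 in astrocytes and 17 to 21 and 18 to 22 in microglia with Aβ42 and Aβ40. Targets called lower ranged from 1 to 2 and 2 to 4 in astrocytes and 0 to 1 and 0 in microglia.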
